A study of Mus musculus with 6 samples.

Results

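Deubiquitinases are proteases that remove ubiquitin from proteins, and so reverse the work of ubiquitin ligases. Ubiquitin-specific proteases (USP) form the largest family in mammals, and ovarian tumour domain proteases (OTU) and ubiquitin C-terminal hydrolases (UCH) are smaller families. In beta cells, as in other secretory cells, protein quality control at the endoplasmic reticulum depends on the ubiquitin system, and UCH-L1 (gene Uchl1) is abundant in neurons and neuroendocrine cells. The genes described here were all those whose symbol begins with Usp and a digit, with Otud or with Uchl, with pseudogenes left out, which took 71 of the 53379 genes in the count tables. Of these, 67 are named as deubiquitinase genes (55 USP, 8 OTU and 4 UCH). The label does not cover the other 4, namely Usp6nl, which encodes a Rab GTPase-activating protein and no protease, and the noncoding transcripts Uchl1os, Usp46os1 and Usp46os2.

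RNA recovered with an antibody against hnRNPK, an RNA-binding protein with a preference for C-rich RNA, was compared with total RNA from the same kind of lysate, 3 libraries each. Both groups came from Min6, a mouse insulinoma line, at passage 31, kept in 25 mM glucose with 500 µM palmitic acid for 30 h, so an untreated state is not part of the comparison. Total RNA was from 10% of the lysate, and the IP used 200 µg of lysate protein and a wash with 350 mM KCl. A pull-down with a non-specific antibody was not analysed here, and RNA held by beads or antibody cannot be told apart from RNA held by hnRNPK.

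Libraries held 38764925 to 52735957 counts. Replicates varied more in the IP, with a biological coefficient of variation of 42.6% against 12.2% in total RNA. All 10 beta cell markers examined were measured, with a summed level of 8281 to 10464 CPM (counts scaled to a common library size) in IP and 25310 to 36537 in total RNA. The 6 exocrine and duct markers summed to at most 1.21 CPM in any library, with Ptf1a, Cpa1 and Amy2a5 at 0, and the 8 stromal, endothelial and immune markers to at most 8.77 CPM. Of 5 markers of other islet cells, the glucagon gene Gcg carried nearly all of a summed 123 to 171 CPM, with 145 ± 24.6 CPM in the IP group and 151 ± 17.3 CPM in the other (SD, n = 3). Whether the 3 libraries of a group stem from different cultures is not in the labels, and the p-values may then rest on technical spread.

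Because hnRNPK favours C-rich RNA, the 30-base window with most C in the 3′ UTR is shown for 3 enriched and 3 depleted mRNAs that recur below, from GENCODE M21 transcripts on GRCm38. Capitals mark runs of 3 or more C. The windows lie in 3′ UTR exons at chr17:47685872-47685901 (+) for Usp49, chr9:44095012-44095041 (+) for Usp2 and chr1:171282151-171282180 (−) for Usp21, which were enriched, and at chr5:66687042-66687071 (+) for Uchl1, chr16:87483482-87483511 (+) for Usp16 and chr14:101695986-101696015 (+) for Uchl3, which were depleted.
Usp49: ccagatatctCCCCCtCCCCCCCCCCCCCC
Usp2: cctaccaCCCtctcaCCCaCCCCggtctcc
Usp21: ccttCCCaacaCCCttaagCCCCCagttac
Uchl1: CCCCatCCCCtccaCCCCaCCCaggccacc
Usp16: tgcttgacacatcaataaactgatattCCC
Uchl3: catcttgacagaaacaccaaatactgtatt
The Usp49 window held 22 C and the Uchl1 window 21, the only windows with at least 21 C among the 56 tested deubiquitinase genes with an annotated 3′ UTR. They belong to an enriched and a depleted mRNA. The cut of 21 was taken from Uchl1 after its value was seen. The windows of Uchl3 (7 C) and Usp16 (8 C) held the fewest C of the 56, so those shown do not stand for their groups. The median was 17 C in enriched and 14 in depleted members, the same as in enriched and depleted genes of the whole table. The 19 C of Usp2 were matched by enriched Otud7b and by depleted Usp3, Usp15, Usp12 and Usp4.

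The mRNAs of deubiquitinases divided between the IP and total RNA, with a reach from 3.79-fold higher (Usp2) to 13.1-fold lower (Uchl4) in the IP. The enriched end held Usp2, Usp49, Usp29, Usp51 and Usp22, followed by the OTU gene Otud7b and by Usp6nl. All 4 Uchl genes lay at the depleted end with Usp16, Usp18, Otud3 and Usp39. USP genes made up 46 of the 58 genes tested. Of 71 genes, 58 passed the filter on low counts and were tested. By edgeR's quasi-likelihood test with a Benjamini-Hochberg adjusted p under 0.05 over all genes, 19 were enriched (32.8%, against 28.9% of all 16929 genes tested) and 23 depleted (39.7%, against 33.6%), while 16 did not pass. Those shares lie near the background, so the counts themselves are not particular to deubiquitinases. The median log2 fold change was −0.15, beside −0.07 over all genes tested. All IP libraries lay above all total RNA libraries for 20 genes (background 32.2%) and below for 26 (background 39.3%), and the groups overlapped for 12. Of the 58 genes tested, 10 were called and at least 2-fold higher and 11 called and at least 2-fold lower. The background for this, over all genes tested, was 19.6% and 24.5%. Enrichment is relative, since scaling by library totals alone moved the median of all genes by −0.43 on the log2 scale and gave 13 enriched and 31 depleted members. An offset for gene length gave 15 and 29, with the median of all genes moved by 0.20.

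**Figure D1:**
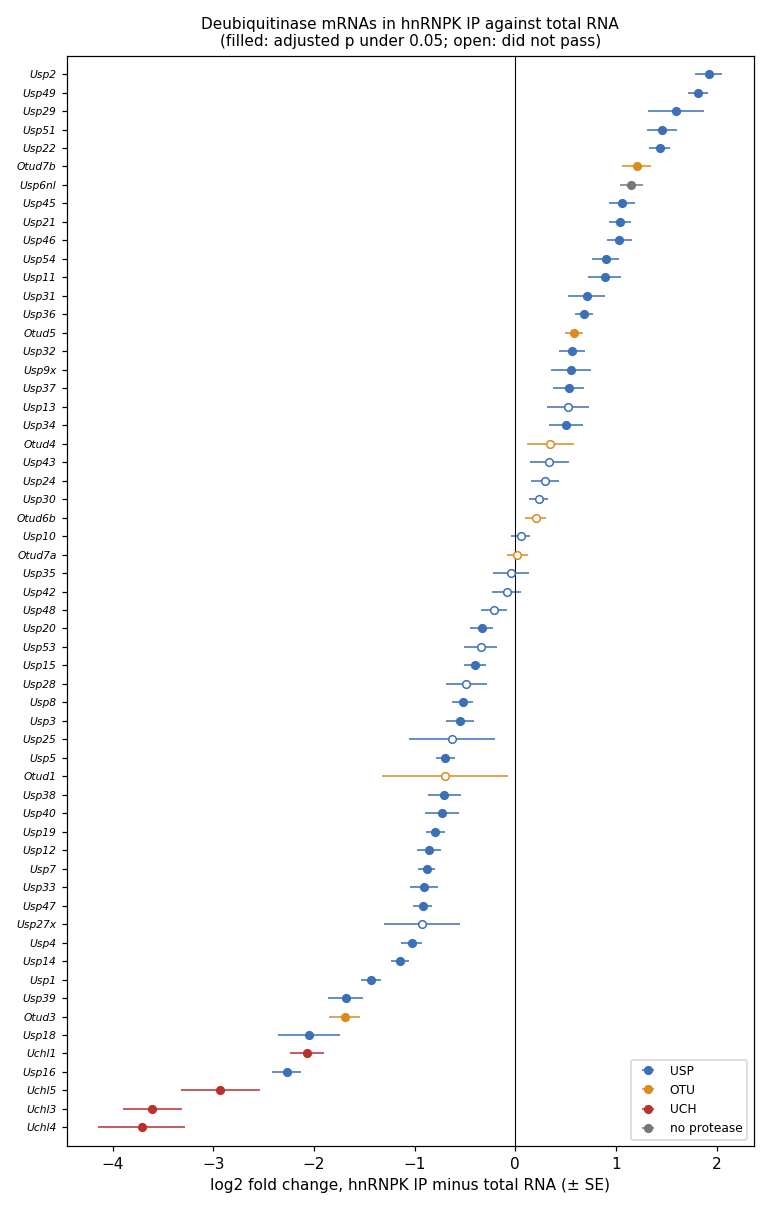
Log2 fold change (hnRNPK IP minus total RNA, ± SE from the edgeR fit, 3 libraries each) of the 58 tested genes, coloured by protease family, filled where the adjusted p was under 0.05. The 4 Uchl genes sit between −3.71 and −2.07, and the highest USP gene, Usp2, at 1.92.

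UCH enzymes include small hydrolases that free ubiquitin from short C-terminal extensions. All 4 genes with a Uchl symbol were called depleted in the IP, beside 33.6% of all genes tested. Bap1, a UCH protease that the symbol rule leaves out, fell less (log2 fold change −1.05 ± 0.12) and was named after its value was seen. Uchl3 and Uchl4 may not be independent measurements, as described below. The 3′ UTRs of Uchl1, Uchl3 and Uchl4 have 306, 140 and 422 bases, and that of Uchl5 has 738. Of all genes with a 3′ UTR under 500 bases, 59.8% were depleted, and of those with 500 to under 2000 bases, 37.7%. Uchl1 encodes a hydrolase abundant in neuroendocrine cells (ENSMUSG00000029223.12, chromosome 5, 66676091 to 66687234). It had 21.5, 17.9 and 24.9 CPM in IP libraries 1, 2 and 3 and 73.8, 97.4 and 100 CPM in total RNA libraries 1, 2 and 3. Every IP library was thus below every total RNA library, and the mRNA was 4.21-fold lower in the IP (log2 fold change −2.07 ± 0.17 SE, edgeR adjusted p = 2.10e-05), or −1.16 under the length offset. Per kb of exon it had the highest level of the whole family in total RNA, 55.4 CPM per kb, and 13.1 in the IP. Its antisense partner Uchl1os overlaps 18.1% of its exonic bases and had 30 counts over the 6 libraries, against 17474 for Uchl1.

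Uchl3 (ENSMUSG00000022111.9, chromosome 14, 101653967 to 101696125), a hydrolase of ubiquitin and of the ubiquitin-like protein NEDD8, had 0.975, 1.21 and 1.90 CPM in the IP libraries and 14.2, 19.4 and 16.4 in total RNA. Uchl4, an intronless copy in the mouse genome (ENSMUSG00000035337.3, chromosome 9, 64235201 to 64236362), had 0.236, 0.303 and 0.574 CPM in the IP and 3.87, 5.42 and 5.56 in total RNA. Neither gene's groups overlapped. Their log2 fold changes were −3.60 ± 0.29 and −3.71 ± 0.43, with edgeR adjusted p = 2.09e-05 and 0.000135. Under the length offset Uchl4 was at −2.67.

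These 2 rows may not be independent measurements. Over 693 aligned coding bases Uchl3 and Uchl4 were identical at 675 (97.4%), and 26.2% of the 50-base stretches of Uchl4 transcripts also occur in Uchl3. The start of both coding sequences shows how alike they are, at chr14:101654064-101654093 (+) and chr9:64235239-64235268 (+) on GRCm38, with the differing base in capitals.
Uchl3 coding start: atggagggtcaacgctggctgccGctggag
Uchl4 coding start: atggagggtcaacgctggctgccActggag
The log2 ratio of Uchl3 to Uchl4 was 1.65 to 1.86 over the IP libraries and 1.56 to 1.87 over total RNA, ranges that overlap. The labels do not say how reads shared by both copies were assigned.

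Uchl5 and Usp14 encode the cysteine proteases that bind the proteasome, where they trim ubiquitin chains, and both fell, beside 33.6% of all genes tested. Uchl5 (ENSMUSG00000018189.12, chromosome 1, 143777272 to 143807466) had 5.64, 1.76 and 5.56 CPM in the IP libraries against 34.9, 33.5 and 30.8 in total RNA. IP library 2 was the lowest by far, and all IP libraries were below total RNA, a 7.62-fold difference (log2 fold change −2.93 ± 0.39, edgeR adjusted p = 0.000303). Usp14 (ENSMUSG00000047879.16, chromosome 18, 9993066 to 10045119) had 27.2, 26.1 and 26.4 CPM in the IP and 59.1, 59.4 and 58.0 in total RNA. These libraries agreed closely within each group, and the log2 fold change was −1.15 ± 0.09 (edgeR adjusted p = 1.82e-05). The gene Thoc1 overlaps 26.0% of the exonic bases of Usp14 on the opposite strand and had 6989 counts over the 6 libraries, so part of the Usp14 reads may belong to Thoc1. Psmd14, the metalloprotease of the proteasome lid and no member of these families, also fell (log2 fold change −2.37 ± 0.32) and was named after its value was seen.

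Among USP enzymes that act on histones or chromatin, 5 of 9 tested genes rose and 3 fell, beside 28.9% and 33.6% of all genes tested, shares that also stand behind each smaller group below. With so few genes a group, nothing is called particular to it. Usp22, the ubiquitin protease of the SAGA coactivator (ENSMUSG00000042506.15, chromosome 11, 61151785 to 61175055), had 344, 309 and 283 CPM in the IP and 125, 112 and 110 in total RNA. This was the highest level of the family in the IP, 63.9 CPM per kb against 23.6 in total RNA, and the groups were far apart (log2 fold change 1.43 ± 0.10, edgeR adjusted p = 1.15e-05). Usp51, a relative that can join the same module (ENSMUSG00000067215.5, chromosome X, 153006469 to 153009416), had 18.8, 21.7 and 18.3 CPM against 7.5, 7.03 and 6.86, and a log2 fold change of 1.46 ± 0.15 (edgeR adjusted p = 7.47e-05), or 2.13 under the length offset. Usp49, described as a histone H2B deubiquitinase (ENSMUSG00000090115.7, chromosome 17, 47630690 to 47686738), had 53.8, 52.2 and 55.9 CPM in the IP and 15.6, 15.5 and 14.9 in total RNA. It was 3.52-fold higher in the IP (log2 fold change 1.82 ± 0.10, edgeR adjusted p = 3.81e-06). The model Gm20517 covers 51.2% of its exonic bases on the same strand and had 0 counts in all 6 libraries, so the treatment of reads that fall in both models bears on the level of Usp49. Usp21, an H2A deubiquitinase, rose by 1.04 ± 0.11 and Usp36, a nucleolar enzyme, by 0.68 ± 0.09 on the log2 scale.

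Usp16, another H2A deubiquitinase (ENSMUSG00000025616.14, chromosome 16, 87454703 to 87483517), went the other way. It had 16.5, 15.7 and 21.7 CPM in the IP libraries and 90.4, 84.4 and 85.3 in total RNA. That is 4.83-fold lower, with no overlap (log2 fold change −2.27 ± 0.14, edgeR adjusted p = 6.40e-06). Usp7, which stabilises Mdm2 and p53, fell by 0.88 ± 0.09, and Usp3 fell by 0.55 ± 0.14 on the log2 scale. The Usp3 call ended without total RNA replicate 2 (−0.47, edgeR adjusted p = 0.0692, against 0.000552 to 0.0476 in the other alternatives). Usp27x, the third relative of Usp22, had 3.22, 1.30 and 3.49 CPM in the IP and 4.79, 5.60 and 4.88 in total RNA, and did not pass (log2 fold change −0.93 ± 0.38, edgeR adjusted p = 0.0648). It passed without IP replicate 2 (−0.60) or 3 (−1.22), with library totals (−1.36) and with limma-voom (−1.01). Usp44 had 2 counts in all libraries together and was not tested.

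The highest log2 fold change belonged to Usp2, a protease with several isoforms, some under circadian control (ENSMUSG00000032010.15, chromosome 9, 44067021 to 44095627). It had 29.4, 32.1 and 33.4 CPM in the IP and 9.16, 7.85 and 8.04 in total RNA (log2 fold change 1.92 ± 0.14, edgeR adjusted p = 1.07e-05). Among all 16929 genes tested this value lay at the 92.2nd percentile, so many other transcripts had a larger one. Usp29, in the imprinted Peg3 region (ENSMUSG00000051527.11, chromosome 7, 6730578 to 6967219), had 41.1, 79.9 and 37.7 CPM in the IP and 18.5, 16.5 and 17.5 in total RNA. IP library 2 held about as much as both other IP libraries together, and all 3 were above total RNA (log2 fold change 1.59 ± 0.28, edgeR adjusted p = 0.00137). The length offset took it to 0.77, still a call. Usp45, which deubiquitinates a DNA repair endonuclease (ENSMUSG00000040455.17, chromosome 4, 21767156 to 21837872), had 67.9, 78.8 and 61.5 CPM against 37.4, 30.6 and 31.8 (log2 fold change 1.06 ± 0.13, edgeR adjusted p = 0.000200). Usp46, at 1.03 ± 0.12, and Usp54, at 0.90 ± 0.13, were also enriched. The Rab regulator Usp6nl, no protease, had 70.5, 86.9 and 69.4 CPM in the IP and 34.3, 34.3 and 33.5 in total RNA (log2 fold change 1.15 ± 0.11, edgeR adjusted p = 5.96e-05).

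**Figure D2:**
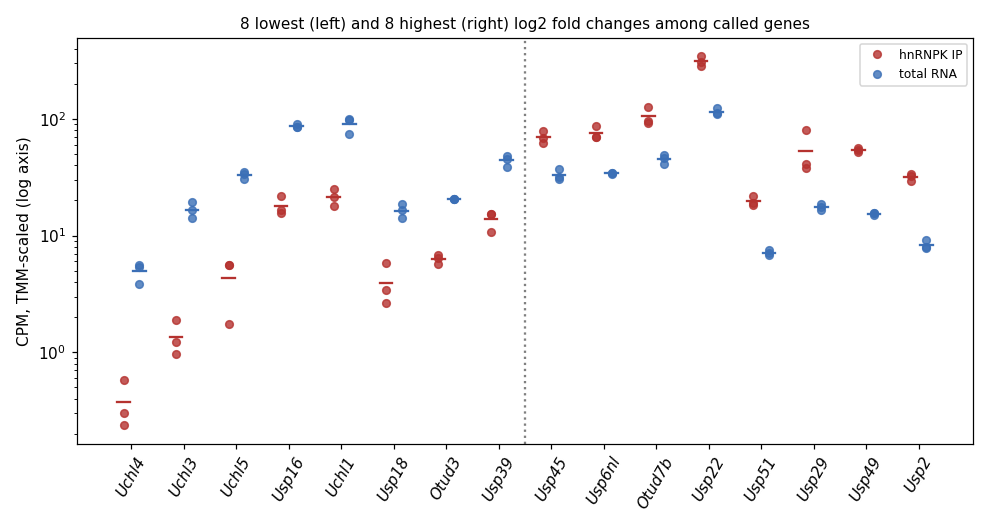
TMM-scaled CPM on a log axis in each library (points; horizontal lines are means of 3) for the 8 lowest and 8 highest log2 fold changes among called genes. The groups do not overlap for any of these 16 genes, and IP library 2 stands apart for Uchl5 (1.76 CPM) and Usp29 (79.9 CPM).

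Of the 4 USP genes listed for DNA repair, Usp1 and Usp47 fell and Usp28 and Usp48 did not pass. Usp45, named above for a repair endonuclease, was not on that list and was enriched (1.06 ± 0.13). Usp1, which acts in the Fanconi anaemia pathway (ENSMUSG00000028560.11, chromosome 4, 98923810 to 98935543), had 37.2, 44.8 and 38.6 CPM in the IP libraries and 113, 106 and 107 in total RNA. It was 2.70-fold lower in the IP (log2 fold change −1.43 ± 0.10, edgeR adjusted p = 1.16e-05), and its 29.1 CPM per kb in total RNA was the second highest level of the family. The pseudogene Gm5841 shares 21.4% of the 50-base stretches of Usp1 transcripts. Usp47 fell by 0.92 ± 0.09 on the log2 scale. Usp28 (−0.49 ± 0.21) and Usp48 (−0.21 ± 0.13) passed without IP replicate 2, at −0.64 and −0.33, with library totals, at −0.92 and −0.65 and under the length offset, at −0.63 and −0.68. Usp28 also passed with limma-voom (−0.53).

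Usp18, the interferon-induced protease that removes the ubiquitin-like protein ISG15 (ENSMUSG00000030107.10, chromosome 6, 121245906 to 121270917), had 3.40, 2.64 and 5.81 CPM in the IP and 14.1, 18.6 and 16.4 in total RNA. All IP libraries were below (log2 fold change −2.05 ± 0.31, edgeR adjusted p = 0.000562). Usp39, an inactive USP relative that works in the spliceosome (ENSMUSG00000056305.4, chromosome 6, 72318678 to 72345184), had 15.3, 10.7 and 15.4 CPM against 39.0, 45.6 and 48.4 (log2 fold change −1.68 ± 0.17, edgeR adjusted p = 7.40e-05). Usp5, which disassembles free ubiquitin chains (ENSMUSG00000038429.10, chromosome 6, 124815019 to 124829484), was among the 5 highest levels per kb in total RNA. It had 69.0, 58.2 and 65.2 CPM in the IP and 102, 105 and 105 in total RNA, a smaller difference without overlap (log2 fold change −0.69 ± 0.09, edgeR adjusted p = 0.000341). Its relative Usp13 did not pass (0.52 ± 0.21), and it was called higher without IP replicate 2 (0.70) and in 4 other alternatives (DESeq2 and its size factors, halved counts and limma-voom).

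Of 7 USP genes of endosomes, the endoplasmic reticulum and mitochondria, 2 rose and 4 fell, by smaller amounts. Usp8, which deubiquitinates receptors at endosomes (ENSMUSG00000027363.15, chromosome 2, 126707328 to 126759297), had 64.8, 55.5 and 67.1 CPM in the IP and 84.3, 92.0 and 92.9 in total RNA (log2 fold change −0.52 ± 0.10, edgeR adjusted p = 0.00282). Usp33 fell by 0.91 ± 0.14 and Usp19, which has a form anchored in the endoplasmic reticulum, by 0.79 ± 0.09 on the log2 scale. Usp20, a relative of Usp33, had the smallest called difference of the family (−0.33 ± 0.11, edgeR adjusted p = 0.0298). That call ended without IP replicate 3 (−0.38) and without any 1 of the total RNA libraries (−0.31 to −0.28), and also with DESeq2 size factors (−0.29) and halved counts (−0.30). Usp30, on mitochondria, did not pass (0.23 ± 0.10) and was called without IP replicate 2 (0.29) and with DESeq2 size factors (0.28).

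Usp9x and Usp32 were the enriched genes of that group. Usp9x had 182, 238 and 140 CPM in the IP libraries and 152, 115 and 114 in total RNA. IP library 3 was below total RNA library 1, and this overlap makes it the called gene whose groups were not apart (log2 fold change 0.56 ± 0.20, edgeR adjusted p = 0.0422). The call ended without IP replicate 1 (0.52) or 2 (0.34) and without total RNA replicate 2 (0.52) or 3 (0.52), and with the offset for gene length the value was −0.16. Usp34, another very large protease, had 121, 173 and 122 CPM against 115, 88.8 and 89.1, a log2 fold change of 0.51 ± 0.17. It no longer passed without IP replicate 2 (0.31), without total RNA replicate 2 (0.48) or 3 (0.48) and with replicate number as a block (0.50), and the offset for gene length turned it to −0.29, a depleted call. Usp37, at 0.53 ± 0.15, no longer passed without total RNA replicate 2 (0.51) or 3 (0.52) and was −0.02 with that offset. Usp32 (0.57 ± 0.13) and Usp31 (0.71 ± 0.18) lost theirs with the offset, at 0.25 and 0.20, and with library totals, at 0.13 and 0.27. Library totals also took Usp9x to 0.12, Usp34 to 0.07 and Usp37 to 0.09, each without a call.

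OTU proteases differ in the chains they cut, and of 7 tested Otud genes 2 were enriched and 1 depleted. OTU proteases with other symbols, such as Yod1 below, are not in this count. Otud7b, which prefers K11-linked chains (ENSMUSG00000038495.14, chromosome 3, 96104527 to 96161129), had 95.6, 127 and 92.5 CPM in the IP and 49.2, 46.3 and 41.3 in total RNA (log2 fold change 1.21 ± 0.15, edgeR adjusted p = 0.000171). Otud5 was enriched at 0.59 ± 0.09, a call that library totals ended (0.15). Otud3 (ENSMUSG00000041161.8, chromosome 4, 138895379 to 138913945) had 6.85, 6.43 and 5.66 CPM in the IP and 20.4, 20.5 and 20.4 in total RNA, and fell 3.24-fold (log2 fold change −1.70 ± 0.15, edgeR adjusted p = 3.29e-05), or to −0.77 on the log2 scale under the length offset. Otud4 had 114, 181 and 93.2 CPM in the IP and 118, 92.2 and 94.6 in total RNA, and its groups overlapped. Otud7a (0.02 ± 0.10), Otud6b (0.20 ± 0.10) and Otud1 (−0.70 ± 0.63) did not pass either. Otud6b was called without IP replicate 2 (0.27) and with the offset for gene length (0.48), and without IP replicate 3, in which Otud1 had 1.65 CPM against 0.473 and 0.455 in the other IP libraries, Otud1 was called at −1.65. Otud6a had no count in any library.

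Paralogous proteases differed from each other in the IP about as often as any members did. For 19 of the 22 pairs examined both genes were tested, and the log2 ratio of the pair was computed within each library, where scaling factors cancel except through the prior count. In 15 pairs the ratios of the 3 IP libraries did not overlap those of the 3 total RNA libraries (78.9%, against 79.6% of all 1653 pairs that the 58 tested genes can form). The exact two-sided permutation test then gives p = 0.1, the smallest that 3 libraries against 3 allow (0.127 after Benjamini-Hochberg adjustment over the 19 pairs), so no pair could pass a threshold of 0.05. Pairs that share a gene are not independent. In 4 pairs (21.1%, against 26.4% of all pairs) 1 gene was enriched and the other depleted, namely Usp16 with Usp45, Usp12 with Usp46, Usp4 with Usp11, and Usp15 with Usp11.

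Usp16 and Usp45 showed the widest difference. The log2 ratio of Usp16 to Usp45 was −2.33 to −1.50 over the IP libraries and 1.27 to 1.46 over total RNA, a change of −3.34. Usp12 and Usp46 are close relatives that share the activating partners WDR48 and WDR20, and their log2 ratio was −0.74 to −0.46 in the IP and 1.21 to 1.32 in total RNA. Total RNA thus held more Usp12 and the IP more Usp46, in counts not divided by length. Usp12 had 57.4, 46.3 and 47.4 CPM in the IP and 98.9, 87.7 and 86.7 in total RNA. Usp4 fell by 1.03 ± 0.11 on the log2 scale while its relative Usp11 rose by 0.89 ± 0.16. Usp15, the third of these relatives, fell by 0.40 ± 0.11, a call that ended without total RNA replicate 1 (−0.28). Pairs whose ratios overlapped were Usp22 with Usp51, Usp25 with Usp28, Usp40 with Usp47, and Uchl3 with Uchl4. Usp22 and Usp51 had ratios of 3.83 to 4.19 in the IP and 3.99 to 4.05 in total RNA.

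**Figure D3:**
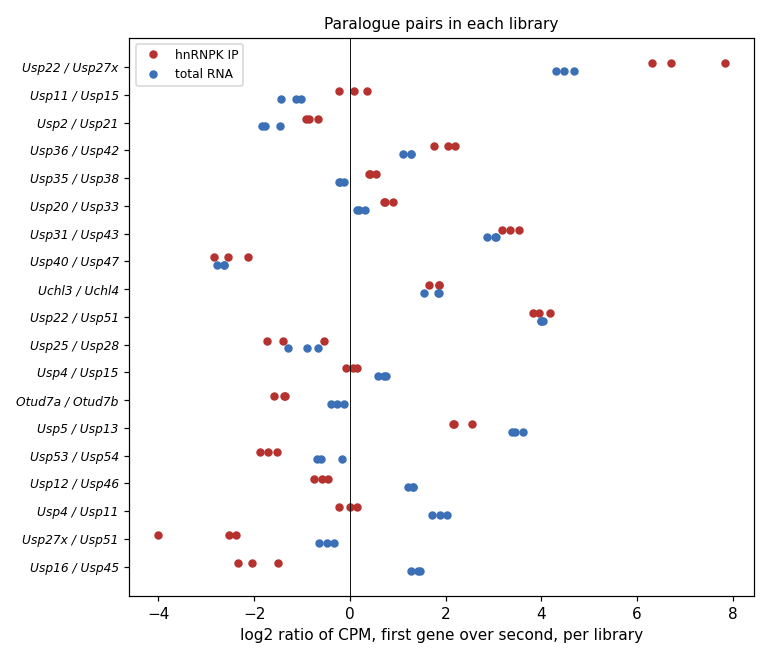
Log2 ratio of CPM of the first over the second gene of each of 19 paralogue pairs, with 1 point per library. In 15 pairs the IP and total RNA points do not overlap, with the widest shift for Usp16 and Usp45 (−3.34).

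Enriched and depleted deubiquitinase mRNAs differed in the length of their 3′ UTR. The longest annotated 3′ UTR had a median of 2686 bases in 17 enriched genes, 738 in 23 depleted genes and 1604 in the 16 that did not pass. Spearman's rho between 3′ UTR length and log2 fold change was 0.55 over the 56 genes, as a description across genes that share the same libraries, and 0.49 over 12934 tested genes. This relation is therefore no property of deubiquitinases alone. Of 9 genes with under 500 bases, 7 were depleted and 1 enriched, against 59.8% and 8.32% of all genes of that length. Of 22 genes with at least 2000 bases, 10 were enriched and 5 depleted, against 56.7% and 15.8%. The length classes were set after the values were seen. Usp21, with 267 bases, is the enriched gene of the short class, and Usp15, with 8499 bases, the longest of the family, was depleted. Coding length (rho 0.27) and exonic length (rho 0.32) ranked the members less closely.

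**Figure D4:**
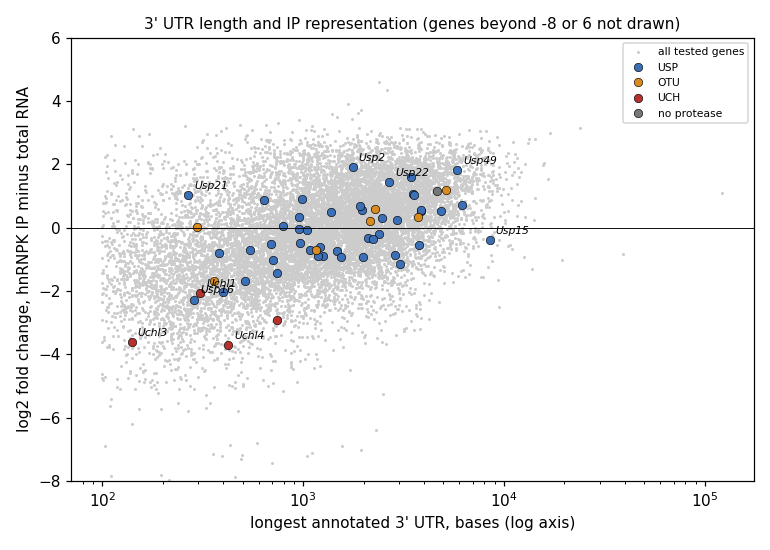
Log2 fold change against the longest annotated 3′ UTR (log axis) for 57 family members with an annotated 3′ UTR, including Usp6nl (coloured by family), over all tested genes (grey). Short 3′ UTRs hold Uchl3 (140 bases) and Usp16 (286 bases) at the depleted end, and Usp49 (5866 bases) lies at the enriched end.

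C-rich sequence in the 3′ UTR followed the IP less simply. The density of CCC (sense strand, overlapping matches counted) had a median of 15.3 per kb in enriched, 10.8 in depleted and 11.6 in other members, with a rho of 0.40 over the 56 genes and 0.26 over 12934. The 3′ UTR was not alone in this. In coding sequence the medians were 17.9, 9.88 and 15.7 per kb, with a rho of 0.38 over 57 genes and 0.23 over 13442. At least 1 CCC was in 55 of 56 member 3′ UTRs and in 97.6% of those of all tested genes, so its presence alone separates nothing. The densest 3′ UTRs of the family were those of Uchl1 (52.3 per kb), Usp21 (48.7), Usp5 (43.9), Usp11 (42.3) and Usp2 (37.4). Usp21, Usp11 and Usp2 were enriched, and Uchl1 and Usp5 were depleted. Uchl3, without any CCC in its 140 bases, had the second lowest log2 fold change. A window of 30 bases with at least 21 C was in 14.4% of 4166 enriched and 1.04% of 4617 depleted genes with an annotated 3′ UTR. A longer 3′ UTR offers more windows, and its length was not taken into account. In the family such a window was in the enriched Usp49 and the depleted Uchl1, whose windows are printed above.

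IP libraries differed from each other in a way that followed coding length. Across the 57 tested deubiquitinase genes, the deviation of a library from the mean of the 3 IP libraries had a Spearman's rho with coding length of −0.13, 0.61 and −0.55 for IP libraries 1, 2 and 3. These are descriptions with no test, and the 3 deviations of a gene sum to 0. IP library 2 was highest for 22 and lowest for 23 of the 57 genes, and IP library 3 highest for 19 and lowest for 23. Those libraries were, over all genes, highest for 36.8% and 36.2% and lowest for 41.3% and 30.5%. With exonic length in place of coding length, the rho over the 57 genes was −0.05, 0.47 and −0.47. Over all tested genes with a length, the rho with exonic length was −0.03, 0.21 and −0.28. The 3 longest coding sequences, those of Usp34, Usp24 and Usp9x, had their highest IP value in library 2, and the 3 shortest, those of Uchl1, Uchl3 and Uchl4, in library 3. Usp54, Usp47 and Usp19, also among the longest, were not highest in library 2. The median coefficient of variation of the 57 genes was 13.6% in the IP and 6.42% in total RNA, below the 22.1% and 10.4% of all tested genes. Usp25 was likewise uneven, with 2.95, 7.67 and 2.62 CPM in the IP and 7.97, 6.96 and 5.48 in total RNA. It did not pass (−0.63 ± 0.43) and was called at −1.29 without IP replicate 2.

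**Figure D5:**
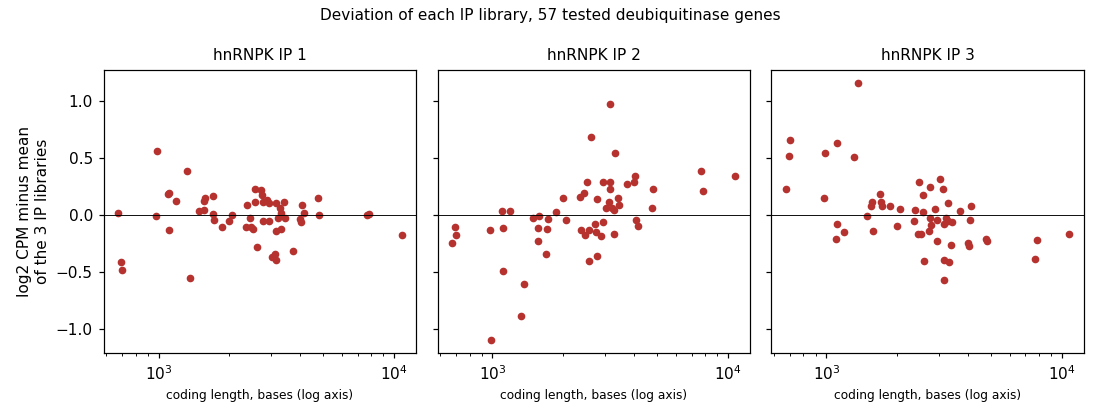
Deviation of log2 CPM in each IP library from the mean of the 3 IP libraries, against coding length (log axis), with 1 point per gene for 57 tested deubiquitinase genes. Points rise with length in IP library 2 (rho 0.61) and fall in IP library 3 (rho −0.55).

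The other genes that did not pass were Usp10, Usp24, Usp35, Usp42, Usp43 and Usp53, with log2 fold changes of −0.34 to 0.34. Usp24 was called at 0.45 without total RNA replicate 1 and was called depleted, at −0.31, with the offset for gene length. That offset also gave depleted calls for Usp10 (−0.40) and Usp53 (−0.95), and library totals for Usp10, Usp35, Usp42, Usp53 and Otud7a. The remaining depleted genes were Usp38 (−0.70 ± 0.16) and Usp40 (−0.73 ± 0.17). Of the 13 genes under the filter, 7 had no count in any library (Otud6a, Usp17la, Usp17lb, Usp26, Usp46os1, Usp46os2 and Usp9y). A count of 0 allows up to 3 counts, or 0.0482 to 0.0910 CPM per library, for counting error only. Usp9y lies on the Y chromosome, and Usp26 and the Usp17l genes are known from testis or blood cells. The other 6 had 2 to 32 counts in all, of which Usp17le had 20 in IP library 3 and 12 in total RNA library 1.

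Genes around these proteases also went both ways. Of 26 deubiquitinases with other names, 8 were enriched (30.8%) and 9 depleted (34.6%), near the 28.9% and 33.6% of all genes (median log2 fold change −0.28). Yod1, an OTU protease that works with the ATPase p97, was 2.96-fold higher (log2 fold change 1.57 ± 0.13) and Vcpip1, also a p97 partner, rose by 1.22 ± 0.20. Mpnd (−2.87 ± 0.27) and the COP9 signalosome protease Cops5 (−2.85 ± 0.21) fell most among the called genes of this list. Among the 22 tested partners of deubiquitinases, 9 were enriched (40.9%) and 6 depleted (27.3%, median 0.03). Atxn7l1 (2.70 ± 0.15) and Atxn7l3 (1.61 ± 0.08), homologues of ATXN7 of which ATXN7L3 joins USP22 in the SAGA deubiquitinase module, were highest, and the proteasome subunit Psmd2 (−1.64 ± 0.11) and the SAGA subunit Sgf29 (−1.32 ± 0.35) were lowest. Of the other subunits of that module, Eny2 was enriched (1.55 ± 0.09) and Atxn7 did not pass (0.11 ± 0.15), both named after their values were seen.

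The polyubiquitin gene Ubb was depleted (log2 fold change −2.33 ± 0.25), while the ubiquitin-activating enzymes Uba6 (1.14 ± 0.10) and Uba1 (1.00 ± 0.09) were enriched. Of 31 conjugating enzymes 10 were enriched (32.3%) and 13 depleted (41.9%, median −0.24). Ube2l3 (2.44 ± 0.13) and Ube2d1 (1.92 ± 0.14) were the highest called, and Ube2s (−2.17 ± 0.39) and Ube2e1 (−2.04 ± 0.22) the lowest. Among 9 proteases of SUMO and NEDD8, 6 were enriched (66.7%) and 2 depleted (22.2%, median 0.50), led by Desi1 (1.17 ± 0.10) and Senp1 (1.09 ± 0.10), with Senp3 (−0.66 ± 0.11) and Senp6 (−0.47 ± 0.10) depleted.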

How the data were processed

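Each library has 1 deposited table of raw counts for every gene, as whole numbers that the authors did not scale. Reads were aligned to mm10 with TopHat2 and counted with featureCounts, per the submitters' processing notes. Versions, annotation release, strand setting and the handling of shared reads are not stated there, so reads of overlapping or near-identical genes cannot be told apart. Of 53379 gene identifiers, 53274 matched GENCODE M21 (GRCm38) without the version suffix, which supplied symbols, coordinates, exon unions and transcript sequences. The 105 unmatched identifiers took up to 0.0237% of the counts.

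Groups came from the sample titles. The test was edgeR 4.0.16 under R 4.3.3 (TMM factors, filterByExpr with minimum count 10 and minimum total 15, quasi-likelihood F test on group alone, Benjamini-Hochberg adjustment over 16929 genes, threshold 0.05), after the fit was tested on simulated data. CPM are TMM-scaled, as mean ± SD where averaged. Log2 CPM used a prior count of 2. SE are the log2 fold change over the square root of F. Levels per kb divide by the exon union, which includes retained introns. No pair of libraries agreed within sampling noise (chi-square per degree of freedom 6.08 to 113). Among counts of 1 to 20, 58.6% to 68.7% were even, so halved counts were tried. Alternatives were DESeq2 1.42.0, its size factors, library totals, limma-voom (limma 3.58.1), no filter, a replicate block, an offset for gene length (lowess, span 0.3) and leaving out each library.

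Members, lists and tests were chosen with earlier results of these data known. Named with values in every library were the 8 highest and 8 lowest called log2 fold changes at 1 CPM or more on average, the 5 highest levels per kb in total RNA, Uchl genes and proteasome-bound proteases. The 2 highest and 2 lowest called genes of each other list were named, except 1 gene that is not reported here, and further members as they bear on a group. Protein sequences were not used here.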

Additional observations from a re-analysis of the deposited data

How the results depend on the processing

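The counts of enriched and depleted genes, of the family and of the whole table, stayed within 1.5 times their reported values in every alternative. The family had 13 to 21 enriched and 21 to 31 depleted members, and leaving out single libraries gave 16 to 20 and 21 to 27. Its median log2 fold change of −0.15 moved to −0.59 with library totals alone and to −0.36 with the offset for gene length; why was not tested, although library totals shift the median of all genes by −0.43. Counting only genes named as deubiquitinases, a choice made after seeing the data, gave 18 and 23 with a median of −0.21. Of 42 called members, 33 kept their call in all 14 alternatives. The exceptions were Usp3, Usp9x, Usp15, Usp20, Usp31, Usp32, Usp34, Usp37 and Otud5, with log2 fold changes of at most 0.71 in size. Where either value was called, direction reversed with the offset for gene length for Usp10 (−0.40), Usp24 (−0.31), Usp34 (−0.29), Usp37 (−0.0226) and Usp9x (−0.16), and with library totals alone for Otud7a (−0.41) and Usp10 (−0.38). Between values that did not pass, signs also turned with library totals for Otud4, Otud6b, Usp24, Usp30 and Usp43, and in other alternatives for Otud4, Otud7a, Usp10 and Usp35. Of the genes still called under the offset in the same direction, it moved Usp15 (to −1.13), Usp40 (−1.32), Usp47 (−1.56) and the 5 given in the report by over 1.5 times.

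The deviations of same-numbered IP and total RNA libraries correlated at 0.000874, −0.07 and 0.12, and those of differently numbered libraries at −0.19 to 0.14. Whether libraries of the same number came from the same lysate cannot be told from these values, and the labels do not say. With the replicate block the family had 18 enriched and 23 depleted members, a median of −0.16, and Usp34 as the call lost; the whole table had 4384 and 5364. Precision is limited by depth for Uchl4, with 8 to 23 counts in the IP libraries, and for Otud1, with 15 to 66.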
